A study of Homo sapiens with 34 samples.

Results

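Serum stripping was examined in LNCaP cells grown on amorphous calcium phosphate (ACP), a mineral coating that stands in for bone in this study. The 4 libraries compared, of 34 in the series, were taken by their column names in the deposited count table: 2 from medium with charcoal-dextran-stripped serum and 2 from control medium. The series holds poly(A)-selected RNA-seq of the prostate lines RWPE, LNCaP, VCaP and MDAPCa2a in 17 groups, on plastic or ACP and with or without androgen. LNCaP is an androgen-responsive cancer line that the labels place as a lymph node metastasis of prostate epithelium. Its control medium was RPMI with 10% fetal bovine serum and added glucose, HEPES and pyruvate, and in the stripped group the serum had been treated with charcoal and dextran. Both groups were split 1:3 from continuous cultures onto coated plates, given fresh medium on day 2 and collected on day 4. Another 2 LNCaP libraries on ACP came from stripped medium with added androgen, also on day 4. The labels put its dose at 100 mM and call it DHT in one field and testosterone in another, so it is named androgen here. VCaP, a line from a bone metastasis, had 2 libraries in each of the same control and stripped groups on ACP on day 4, in a DMEM and F12 base with 10% serum. No label says that replicates were separate cultures, so p-values measure the spread between these samples, which may be technical.

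Charcoal-dextran treatment takes small lipophilic molecules out of serum, steroid hormones among them, and also lowers other lipids and some growth factors. Testosterone and dihydrotestosterone act on transcription, and in luminal prostate cells they drive the genes of secreted proteases, lipid synthesis and membrane traffic while holding others down. A medium with stripped serum is the usual way to withdraw androgen from such cells in culture.

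Total counts in the 4 libraries ran from 25740251 to 30144399 reads on genes. All 11 luminal prostate markers fixed for the check, among them KRT8, KRT18, HOXB13 and FOXA1, passed the filter on low counts. Their summed level was 8111 to 10928 CPM (read counts scaled to the library's size) in control and 9342 to 10189 CPM in stripped medium. Of the 8 basal keratinocyte markers 6 passed the filter and none was called, with sums of 5.93 and 39.4 CPM in control and 32.1 to 41.4 CPM in stripped medium. KRT5, the defining basal keratin, was at 0 and 8.19 CPM in control and at 10.3 and 2.25 CPM in stripped medium, so that it followed single libraries and not the medium. The fibroblast, leukocyte, endothelial and liver lists stayed at sums of 6.88 to 55.5 CPM, with defining markers such as PECAM1, CDH5 and APOC3 at or near 0. CPS1, an enzyme of the urea cycle, and VWF, a clotting factor of vessel walls, were the 2 genes called on these lists, both higher. CPS1 was at 10.6 and 12 CPM against 46.3 and 53.5 CPM, and VWF at 13.6 and 16.8 CPM against 32.3 and 39.9 CPM, which did not pass when any 1 of the 4 libraries was left out (log2 1.09 to 1.40). CD68, a macrophage marker also found in lysosomes of other cells, made up nearly all of the leukocyte sum, at 6.61 and 35.0 CPM in control and 11.6 and 13.6 CPM in stripped medium. The part of such markers in the results was not tested. The control libraries stood further apart than the stripped ones. Among genes at 5 CPM or more in either replicate, 48 differed more than 4-fold between the control replicates, 43 of them higher in replicate 2, against 2 between the stripped replicates. The genes higher in control replicate 2 included MMP12, KRT20 and IL32, and of the 48 genes TRAF1, S100P and C8orf4 were called between media.

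Stripped medium changed 787 of 14656 tested genes (5.37%) at an adjusted p below 0.05 in edgeR's quasi-likelihood test with Benjamini-Hochberg adjustment. Of these, 481 (3.28%) were higher and 306 (2.09%) were lower, and 3198 genes had an unadjusted p below 0.05. The change was at least 2-fold in 295 of the higher and 181 of the lower genes. In all 787 called genes, both stripped libraries lay on the same side of both control libraries. Over all tested genes this held for 26.7% in the upward and 26.2% in the downward direction, and the median log2 change was -0.0101. The count rested strongly on the stripped libraries: it was 191 without stripped replicate 1 and 216 without replicate 2, against 771 without control replicate 2. Without control replicate 1 it was 534, with 225 higher and 309 lower, so that more genes were then lower than higher. In bulk RNA, fewer cells of a kind and less RNA per cell cannot be told apart.

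**Figure D1:**
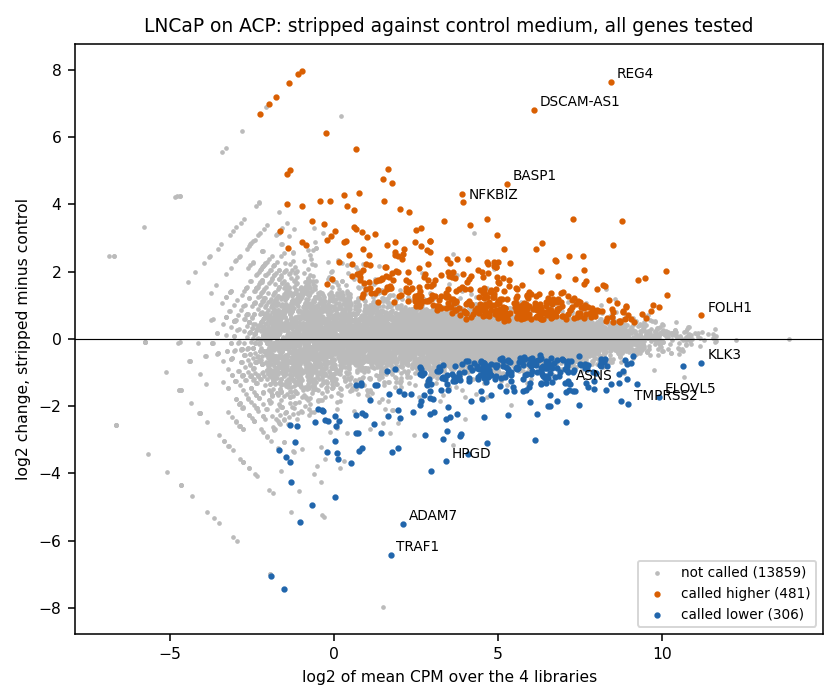
Log2 change of stripped against control medium (y axis) against the log2 of the mean CPM over the 4 libraries (x axis), for the 14646 tested genes with a read in these libraries. Orange and blue points are the 481 higher and 306 lower genes called, and grey points the others; REG4 and DSCAM-AS1 lie far above and TRAF1 and ADAM7 far below the bulk of the genes.

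Genes known to be induced by androgen were mostly lower in stripped medium. Of 40 tested members of that list, 18 fell and 1 rose, with a median log2 change of -0.98 against -0.0101 over all genes, and 32 of the 40 had both stripped libraries under both controls. Over all tested genes 2.09% were called lower and 3.28% higher, and 26.2% had both stripped libraries under both controls. KLK3, whose product is the prostate-specific antigen of blood tests, was at 2369 and 3496 CPM in control and at 1664 and 1937 CPM in stripped medium, a log2 change of -0.70 ± 0.17 (SE, adjusted p 0.0412). The groups did not overlap, but the lower control library lay only a little above the higher stripped one. KLK2, a neighbouring kallikrein protease, was at 91.1 and 103 CPM against 49.9 and 48.8 CPM (log2 -0.97 ± 0.23, adjusted p 0.0340). TMPRSS2, a membrane serine protease, went from 546 and 1039 CPM to 209 and 202 CPM (log2 -1.95 ± 0.24, adjusted p 0.00117). Its control libraries differed from each other by more than the stripped ones did, yet both lay well above them.

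Other members of the list were lower by larger factors than the kallikreins. SLC45A3, a solute carrier also called prostein, fell from 305 and 260 CPM to 71.6 and 72.1 CPM (log2 -1.98 ± 0.17, adjusted p 1.35e-04). HPGD, which breaks down prostaglandins, was at 20.2 and 19.0 CPM in control and 1.31 and 1.83 CPM in stripped medium (log2 -3.64 ± 0.29, adjusted p 1.06e-04). ADAM7, a member of the ADAM protease family found in the epididymis, had 237 and 194 reads in control and 2 and 8 in stripped medium (log2 -5.51 ± 0.59, adjusted p 6.34e-04). In these 3 genes replicates of a medium lay close together beside the gap between media. FKBP5, a co-chaperone of steroid receptors, was at 240 and 183 CPM against 62.4 and 84.4 CPM (log2 -1.53 ± 0.23, adjusted p 0.00402). PGC, the pepsinogen of the stomach that androgen also induces in prostate cells, was at 13.1 and 22.4 CPM against 2.21 and 2.29 CPM (log2 -2.98 ± 0.70, adjusted p 0.0327). The exception on the list was ACPP, prostatic acid phosphatase, which rose from 71.6 and 80.7 CPM to 244 and 389 CPM (log2 2.05 ± 0.31, adjusted p 0.00362). KLK4 and SGK1 had changes above 0 as well (log2 0.52 and 0.84) and did not pass the threshold.

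The androgen libraries on ACP show where these genes stood once hormone was given back. They are compared with the same stripped libraries, so that both comparisons share them and their changes are not independent. Androgen against stripped medium changed 1133 of 14656 genes (7.73%), 552 of them higher (3.77%) and 581 lower (3.96%). On the androgen-induced list 33 of 40 genes were higher and 1 was lower, with a median log2 change of 1.65 against -0.0119 over all genes. KLK3 was at 3506 and 3753 CPM with androgen, TMPRSS2 at 991 and 987 CPM and SLC45A3 at 656 and 631 CPM. HPGD stood at 78.6 and 50.4 CPM and PGC at 371 and 61.3 CPM, with a wide gap between the PGC replicates. ACPP, at 108 and 224 CPM, did not pass in this comparison (adjusted p 0.0807).

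Short promoter stretches show the androgen response half-site where it was found upstream of genes that fell. The capitals mark AGAACA, the conserved core of an androgen response element, searched on both strands in the 250 bases upstream of RefSeq gene starts (GRCh38.p14).
KLK3 (chr19:50854734-50854761, + strand): ctagtaattgcAGAACAgcaagtgctag
TRPM8 (chr2:233979972-233979999, + strand): acatgaagagcAGAACAgccagtgtgct
The KLK3 match starts 170 bases and the TRPM8 match 166 bases before the start. TRPM8, a cold-sensing calcium channel of prostate epithelium, was at 5.93 and 7.24 CPM in control and 1.76 and 2.48 CPM in stripped medium (log2 -1.64 ± 0.32, adjusted p 0.0150). The half-site lay in this window in 2 of 15 called-lower list members with a RefSeq window (13.3%) and in 1264 of 11510 tested genes (11%), so its share among them was close to that of all genes. The full palindromic androgen response element (half-site, 3 spacer bases, inverted half-site) was found upstream of 0 of these 11510 genes. A match describes letters in a window and is not shown to be a bound site.

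Of 13 tested genes known to be held down by androgen, 7 rose in stripped medium and none fell, where edgeR had 9 higher and 1 lower at an unadjusted p below 0.05 and DESeq2 also called 0 lower. The median log2 change was 0.98, and over all tested genes 3.28% were called higher and 2.09% lower. The count of 7 was 3 without stripped replicate 1 and 2 without stripped replicate 2. FOLH1, which encodes prostate-specific membrane antigen, went from 1645 and 1964 CPM to 2738 and 3110 CPM (log2 0.70 ± 0.14, adjusted p 0.0182). Its stripped libraries were the higher pair, by well under 2-fold. DDC, the decarboxylase that makes dopamine and serotonin, rose further, from 16.9 and 22.0 CPM to 116.2 and 167 CPM (log2 2.86 ± 0.44, adjusted p 0.00410). UGT2B17 and UGT2B15 encode enzymes that attach glucuronic acid to androgens and so clear them from the cell. UGT2B17 rose from 420 and 218 CPM to 1119 and 1136 CPM (log2 1.82 ± 0.27, adjusted p 0.00362), and UGT2B15 from 134 and 59.8 CPM to 274 and 358 CPM (log2 1.71 ± 0.35, adjusted p 0.0184). UGT2B15 did not pass without control replicate 2 (log2 1.23) or either stripped replicate (log2 1.88 and 1.5). SERPINI1, a serine protease inhibitor of neurons, rose from 5.97 and 3.78 CPM to 17.3 and 18.2 CPM (log2 1.86 ± 0.32, adjusted p 0.00770). UGT2B28, named after its values were seen, went the other way without passing the threshold, from 10.4 and 2.83 CPM in control to 0.966 and 1.37 CPM in stripped medium (log2 -2.50 ± 0.74, adjusted p 0.0783). Its groups did not overlap, and it was at 83.3 and 17.7 CPM with androgen (log2 5.43 ± 0.77 against stripped medium, adjusted p 0.00226). The UGT2B genes are near-identical copies whose reads the authors' counting could have split, so their separate levels are uncertain. With androgen, 7 of the 13 genes were lower than in stripped medium and 2, UGT2B28 and KIF5C (log2 1.39), were higher. Of all genes 3.96% were lower and 3.77% higher in that comparison.

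**Figure D2:**
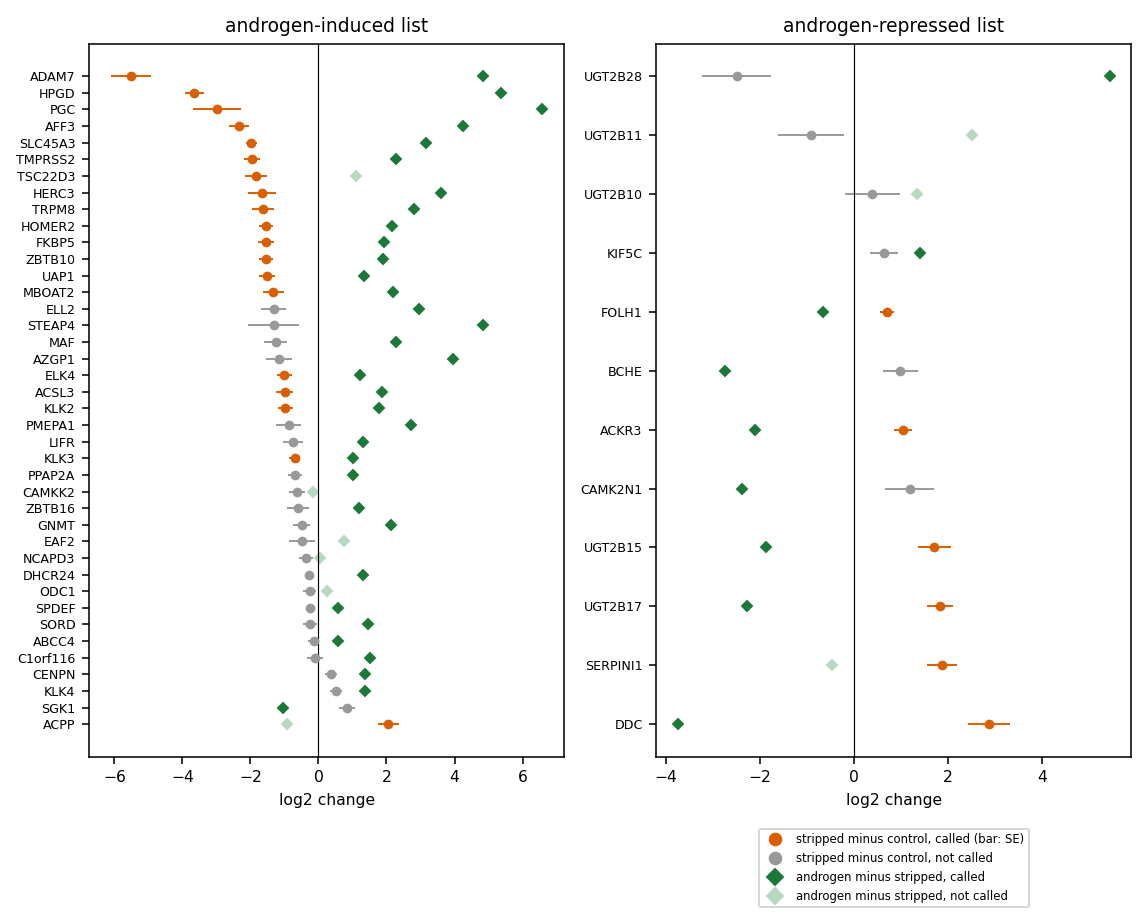
Log2 changes on the x axis for the tested genes of the androgen-induced list (left, 40 genes) and the androgen-repressed list (right, 12 of 13 genes, since 1 is not reported by name). Circles with SE bars are stripped minus control medium (orange called, grey not called) and diamonds are androgen minus stripped medium (dark green called, pale green not called), which share the stripped libraries; 36 circles on the left lie under 0 and ACPP is the called one above it.

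Genes of amino acid supply under ATF4 were lower in stripped medium. ATF4 is a transcription factor made when cells lack amino acids or when protein folding fails, and it switches on genes that import amino acids, make serine, glycine, asparagine and proline, and charge transfer RNAs. It binds, with C/EBP partners, an element with the core TGATGNAA. Of 32 tested members 20 fell and none rose, against 2.09% and 3.28% of all tested genes. All 32 had a log2 change under 0, and the median was -0.90. At an unadjusted p below 0.05, edgeR had 25 lower and 0 higher, and DESeq2 called 22 lower and 0 higher. In 31 of the 32 genes both stripped libraries lay under both controls, against 26.2% of all genes. The count of called genes was 9 without stripped replicate 1, 8 without replicate 2, and 16 and 21 without control replicates 2 and 1. In a fit of all 34 libraries it was 7.

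The element was found within 250 bases upstream of 5 of 15 called-lower members with a RefSeq window (33.3%), of 6 of 24 members in all (25%) and of 267 of 11510 tested genes (2.32%). The list was chosen as genes under ATF4, which binds this element, so a share above that of all genes is not independent support. A match is not shown to be a bound site. The 5 stretches follow on the gene's own strand from RefSeq (GRCh38.p14), with the match in capitals. The counts were made on another build, hg19, so the coordinates belong to the sequences only.
ASNS (chr7:97872458-97872487, - strand): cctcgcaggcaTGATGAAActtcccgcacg
ATF3 (chr1:212565205-212565234, + strand): aaaggtcaggaTGATGGAAggctgtcatat
CEBPG (chr19:33374060-33374089, + strand): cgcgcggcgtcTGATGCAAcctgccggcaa
CHAC1 (chr15:40953251-40953280, + strand): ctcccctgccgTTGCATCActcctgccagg
SLC1A5 (chr19:46784893-46784922, - strand): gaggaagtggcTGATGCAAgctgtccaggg
In CHAC1 the capitals are the reverse complement of the element. The matches start 68 bases before the start of ASNS, 191 before ATF3, 42 before CEBPG, 209 before CHAC1 and 97 before SLC1A5.

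ASNS, which makes asparagine, was at 213 and 209 CPM in control and at 90.0 and 77.1 CPM in stripped medium (log2 -1.34 ± 0.18, adjusted p 0.00213). CHAC1, which degrades glutathione, was at 30.8 and 49.6 CPM against 9.62 and 6.34 CPM (log2 -2.33 ± 0.34, adjusted p 0.00358). SLC1A5, a carrier of glutamine and other neutral amino acids, went from 189 and 210 CPM to 86.1 and 82.5 CPM (log2 -1.24 ± 0.14, adjusted p 6.68e-04). In these 3 genes each control library was at least 2 times as high as each stripped one. ATF3, a stress-induced partner of ATF4, was at 79.9 and 172 CPM against 47.8 and 53.7 CPM (log2 -1.31 ± 0.27, adjusted p 0.0181). CEBPG, a C/EBP family partner, changed less, from 107 and 121 CPM to 66.3 and 71.1 CPM (log2 -0.73 ± 0.14, adjusted p 0.0108). The ATF3 control libraries lay far apart, while those of CEBPG were close. Without control replicate 2 the ATF3 change was log2 -0.66, and its call and that of CEBPG were lost without either stripped replicate (ATF3 log2 -1.24 and -1.40, CEBPG -0.69 and -0.79). CHAC1 did not pass without stripped replicate 2 (log2 -2.06).

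Members without a match in the window also fell. TRIB3, a pseudokinase that feeds back on ATF4, was at 179 and 226 CPM in control and 72.4 and 63.6 CPM in stripped medium (log2 -1.57 ± 0.17, adjusted p 6.34e-04). MTHFD2, a mitochondrial enzyme of folate metabolism, went from 258 and 225 CPM to 83.1 and 80.2 CPM (log2 -1.56 ± 0.18, adjusted p 8.58e-04). PSAT1, which catalyses a step of serine synthesis, was at 724 and 641 CPM against 308 and 290 CPM (log2 -1.19 ± 0.20, adjusted p 0.00705). All 3 had a control pair far above the stripped pair. SLC7A11, the cystine importer, fell by 2.01 ± 0.40 on the log2 scale (adjusted p 0.0163) and SLC7A1, a carrier of arginine and lysine, by 1.09 ± 0.13 (adjusted p 8.58e-04). ATF4 itself was at 607 and 632 CPM in control and 386 and 352 CPM in stripped medium (log2 -0.75 ± 0.13, adjusted p 0.00845). The calls of PSAT1, SLC7A11 and ATF4 were lost without either stripped replicate, where ATF4 was at log2 -0.82 and -0.69, PSAT1 at -1.24 and -1.15 and SLC7A11 at -2.11 and -1.93. PHGDH, AARS and SLC3A2 had log2 changes of -0.52, -0.26 and -0.33 and did not pass.

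Between androgen and stripped medium, genes of this list were called in both directions. Of the 32, 2 members were called higher with androgen and 2 lower, against 3.77% and 3.96% of all genes. By edgeR, 6 were higher and 5 lower at an unadjusted p below 0.05. The median log2 difference was -0.06 against -0.0119 over all genes. ASNS was at 78.0 and 68.0 CPM with androgen, TRIB3 at 71.2 and 85.6 CPM, SLC1A5 at 88.7 and 93.2 CPM and CHAC1 at 7.23 and 7.03 CPM. The log2 difference from stripped medium was -0.20 ± 0.18 for ASNS (adjusted p 0.555) and 0.11 ± 0.13 for SLC1A5 (adjusted p 0.665). In these 4 genes both androgen libraries lay under both control libraries. ATF4 was lower still, at 229 and 248 CPM (log2 -0.63, adjusted p 0.0172), and PHGDH, which starts serine synthesis, was lower too (log2 -0.98, adjusted p 0.00745). GPT2 and SLC38A2 were the members higher with androgen (log2 1.51 and 1.21). In VCaP none of the 32 genes was called on serum stripping, where 21 of 15614 genes were called higher (0.134%) and 107 lower (0.685%). The VCaP median was -0.21, and none of the 32 differed between the lines in the test of that difference. On simulated data that test recovered 1% of changes of log2 1, so it could not show that the lines were alike here.

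**Figure D3:**
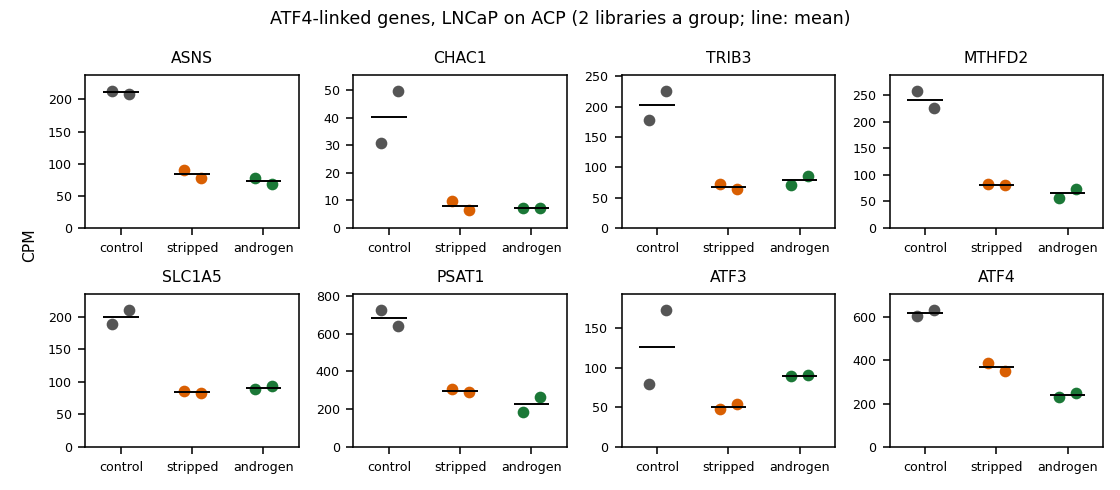
CPM (y axis, from 0) of 8 genes linked to ATF4 in the 2 libraries each of control, stripped and androgen medium, LNCaP on ACP; points are libraries and lines are means. In all 8 panels both stripped libraries lie under both control libraries, and the androgen libraries of ASNS, CHAC1, TRIB3, MTHFD2 and SLC1A5 lie near the stripped ones.

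Transfer RNA charging enzymes were looked at as a list put together after their values were seen, so its counts are a description. Of 20 cytosolic aminoacyl-tRNA synthetases 7 fell and none rose, against 2.09% and 3.28% of all tested genes. The median log2 change of the list was -0.38. The count of 7 was 3 without stripped replicate 1 and 1, YARS, without stripped replicate 2. YARS, the tyrosine enzyme, was at 253 and 270 CPM in control and 144 and 143 CPM in stripped medium (log2 -0.86 ± 0.12, adjusted p 0.00282). GARS, for glycine, went from 319 and 366 CPM to 165 and 173 CPM (log2 -1.02 ± 0.17, adjusted p 0.00605), and is on the ATF4 list as well. In both genes the replicates were close and the media did not overlap. The GARS call was lost without either stripped replicate (log2 -1.0 and -1.05). With androgen 0 of the 20 were called against stripped medium, where 7.73% of all genes were called. YARS stood at 147 and 143 CPM with androgen.

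Fatty acid synthesis was lower in part. Of 23 tested genes 7 fell and none rose, against 2.09% and 3.28% of all tested genes, and the median log2 change was -0.34. At an unadjusted p below 0.05, edgeR had 10 lower and 0 higher, and DESeq2 called 8 lower and 0 higher. ELOVL7, an elongase of very long fatty acids, was at 40.5 and 50.3 CPM in control and at 3.83 and 6.72 CPM in stripped medium (log2 -3.11 ± 0.32, adjusted p 5.65e-04). ELOVL5, which lengthens polyunsaturated fatty acids, went from 1447 and 1529 CPM to 388 and 507 CPM (log2 -1.73 ± 0.20, adjusted p 8.58e-04). Both elongases had control libraries several times above the stripped ones. FASN, the fatty acid synthase, was at 1773 and 2287 CPM against 1345 and 955 CPM (log2 -0.82 ± 0.21, adjusted p 0.0460), and ACLY, which supplies its acetyl-CoA, changed by log2 -0.52 ± 0.13 (adjusted p 0.0383). FADS1, a desaturase, was at 163 and 177 CPM against 102 and 105 CPM (log2 -0.72 ± 0.14, adjusted p 0.0152). SREBF1, the regulator of the pathway, had a log2 change of 0.06 and SCD one of -0.35, and neither passed. The count of 7 was 2 without either stripped replicate and 4 without control replicate 1. ACLY did not pass when any 1 library was left out (log2 -0.61 to -0.45) and FASN without control replicate 2 or either stripped replicate (log2 -1.09 to -0.60). The FASN call was also lost with the replicate number as a block (log2 -0.83, adjusted p 0.0514). With androgen 13 of the 23 were higher than in stripped medium and none lower, against 3.77% and 3.96% of all genes. ELOVL5 stood at 4793 and 3431 CPM with androgen, above both control libraries.

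Cholesterol synthesis held 1 call between these media. TM7SF2, a sterol reductase, was the one that passed among 26 tested genes, rising from 188 and 313 CPM to 475 and 445 CPM (log2 0.88 ± 0.22, adjusted p 0.0455). The list's median was -0.08, and 3.28% of all tested genes were called higher, a share near that of this list. At an unadjusted p below 0.05, 2 members were higher and 5 lower, and DESeq2 called 1 higher and 1 lower. Of all 14656 tested genes, 3198 had such a p in either direction. With androgen 14 of the 26 were higher than in stripped medium, against 3.77% of all genes.

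The rises of largest factor were in genes nearly silent in control medium. REG4, a secreted lectin of the gut that some prostate cancers express, was at 3.20 and 3.70 CPM in control and at 765 and 623 CPM in stripped medium (log2 7.65 ± 1.05, adjusted p 0.00219). With androgen its replicates were at 42.9 and 1.90 CPM, under both stripped libraries but far from each other. SYNE1, a protein that ties the nuclear envelope to actin, went from 1.5 and 1.38 CPM to 19.1 and 37.7 CPM (log2 4.30 ± 0.35, adjusted p 1.35e-04). It was back at 2.13 and 2.21 CPM with androgen. NFKBIZ, an inducible nuclear partner of NF-kappaB, rose from 1.23 and 2.24 CPM to 24.9 and 32.9 CPM (log2 4.05 ± 0.29, adjusted p 8.51e-05) and was at 7.31 and 7.24 CPM with androgen. These 3 genes were called lower with androgen than in stripped medium.

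Another group of large rises was not called lower with androgen. DSCAM-AS1, a long noncoding RNA known from estrogen receptor positive breast cancer, was at 0.593 and 1.81 CPM in control, 153 and 116.5 CPM in stripped medium (log2 6.80 ± 0.45, adjusted p 6.02e-05) and 251 and 132 CPM with androgen. No source says that strand was used in counting, and its reads cannot be told apart from those of DSCAM on the other strand. BASP1, a membrane-bound protein of growing neurites, was at 0.989 and 5.04 CPM in control, 65.7 and 82.2 CPM in stripped medium (log2 4.61 ± 0.49, adjusted p 5.96e-04) and 98.4 and 125 CPM with androgen. GAPLINC, a long noncoding RNA known from gastric cancer, rose from 0.237 and 0.118 CPM to 6.28 and 5.81 CPM (log2 5.06 ± 0.44, adjusted p 1.75e-04), and SMOC1, a secreted calcium-binding matrix protein, from 0.158 and 0.472 CPM to 5.79 and 5.16 CPM (log2 4.10 ± 0.61, adjusted p 0.00362). The log2 differences between androgen and stripped medium ran from -0.54 to 0.60 in these 4 genes and none passed. The other 3 of the 10 largest rises were APOL4 (log2 4.76), BNIPL (log2 4.64) and ZNF503-AS1 (log2 3.87). They were all under 1 CPM in control and between 5.23 and 8.76 CPM in stripped medium. Unlike the 4 genes above, these 3 were called lower with androgen than in stripped medium (log2 -2.17, -1.79 and -3.11, in that order). ZNF503-AS1 is an antisense RNA with the same limit as DSCAM-AS1.

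Among the largest falls, several fell with the androgen-induced genes described above, and others are not on that list. CHRNA2, a subunit of a nicotinic acetylcholine receptor, was at 17.1 and 12.2 CPM in control and at 1.17 and 0.726 CPM in stripped medium (log2 -3.93 ± 0.30, adjusted p 9.60e-05). IQGAP2, a scaffold protein of the cytoskeleton, went from 32.7 and 29.4 CPM to 2.31 and 3.51 CPM (log2 -3.42 ± 0.43, adjusted p 0.00142). TM4SF1, a tetraspanin-like surface protein, fell from 132 and 120 CPM to 12.1 and 19.2 CPM (log2 -3.01 ± 0.26, adjusted p 1.35e-04). In each of the 3 the control replicates were close and lay several times above both stripped libraries. TM4SF1 was at 29.3 and 41.5 CPM with androgen, between the other media, whereas CHRNA2 was at 54.2 and 39.7 CPM, above control. TUBA3D, an alpha tubulin, and TENM1, a teneurin of neural connections, fell by 3.37 and 3.25 on the log2 scale. TUBA3D has near-identical tubulin copies, so its reads may be shared with them. TRAF1, an adaptor of TNF receptors, had the largest fitted fall of the named genes (log2 -6.41 ± 1.61, adjusted p 0.0433). It had 10 and 323 reads in control and 0 and 4 in stripped medium, so control replicate 2 carried the difference. Without that library its log2 change was -2.38 and did not pass, and the call was also lost without either stripped replicate.

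**Figure D4:**
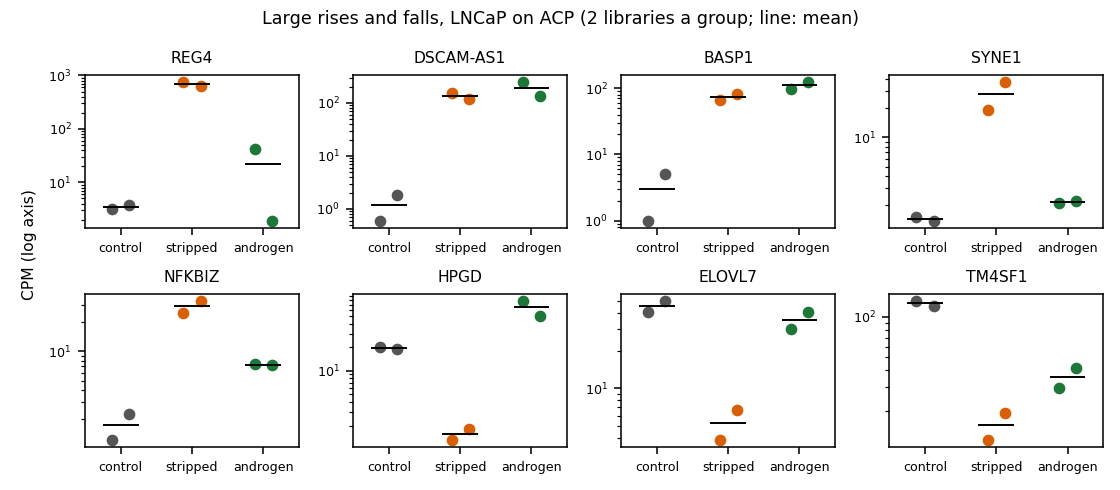
CPM (y axis, log scale) of 5 genes with large rises and 3 with large falls in the 2 libraries each of control, stripped and androgen medium, LNCaP on ACP; points are libraries and lines are means. REG4, SYNE1 and NFKBIZ were lower again with androgen, DSCAM-AS1 and BASP1 stayed near or above their stripped level, and HPGD and ELOVL7 were higher again.

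Genes of cell division showed no called change between stripped and control medium. Of 40 tested genes of mitosis and the spindle none was called, although all 40 had a log2 change under 0 and the median was -0.62. In 28 of the 40 both stripped libraries lay under both controls, against 26.2% of all genes. At an unadjusted p below 0.05, edgeR had 6 lower and DESeq2 called 2. Among all tested genes 3198 of 14656 had such a p in either direction, and DESeq2 called 581 lower. ASPM, a spindle pole protein, was at 25.1 and 15.1 CPM in control and 6.10 and 11.5 CPM in stripped medium (log2 -1.20 ± 0.41, adjusted p 0.117). Of 41 tested genes of DNA replication none was called either, with a median of -0.35, 8 lower at an unadjusted p below 0.05 and 2 lower with DESeq2. Both stripped libraries lay under both controls in 24 of the 41. The control replicates differed here: the summed level of the mitosis list was 2492 and 3870 CPM in the control libraries against 1840 to 2450 CPM in the stripped ones. With androgen, 20 mitosis genes and 27 replication genes were called lower than in stripped medium, against 3.96% of all genes. In VCaP, stripped medium lowered 11 of the mitosis and 18 of the replication genes, against 0.685% of all genes. The effects of the lines differed for 0 of the 40 mitosis and 4 of the 41 replication genes in the test of that difference, against 0.595% of all genes. On simulated data that test recovered 1% of changes of log2 1, so it could not show that the lines were alike here.

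Calls on the other lists stand beside 3.28% of all tested genes called higher and 2.09% called lower. Of 26 tested genes of glycolysis and hypoxia 3 fell. HK2, a hexokinase, was at 51.6 and 68.8 CPM in control and 26.6 and 23.6 CPM in stripped medium (log2 -1.26 ± 0.17, adjusted p 0.00167). PDK1, a kinase that inhibits pyruvate dehydrogenase, changed by log2 -1.55 ± 0.29 (adjusted p 0.0107) and ANKRD37 by -1.98 ± 0.47 (adjusted p 0.0348). Of 10 genes of the insulin-like growth factor axis IGF1R, the receptor, fell, from 18.5 and 17.7 CPM to 3.07 and 3.82 CPM (log2 -2.39 ± 0.24, adjusted p 5.07e-04). UAP1, which makes the sugar donor UDP-GlcNAc, and ST6GALNAC1, a sialyltransferase, fell by 1.51 and 1.25 on the log2 scale among 16 glycosylation genes. ERO1A, which oxidises folding proteins, was the only one called of 31 genes of endoplasmic reticulum folding (log2 -1.13, adjusted p 0.0341). These 7 genes had higher control than stripped libraries throughout, as did every gene called lower.

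Glucocorticoid-responsive genes split. TSC22D3, known as GILZ, fell with FKBP5, from 154 and 193 CPM to 40.1 and 57.0 CPM (log2 -1.84 ± 0.32, adjusted p 0.00842). TSC22D3 is also on the androgen-induced list, with which FKBP5 was described above, so these falls are not a separate result. DUSP1, a phosphatase that switches off MAP kinases, rose from 29.7 and 38.8 CPM to 94.4 and 73.1 CPM (log2 1.29 ± 0.28, adjusted p 0.0238), and 10 further tested genes of the 13 were not called. DUSP4, a related phosphatase, fell (log2 -1.12 ± 0.25, adjusted p 0.0242). Both phosphatases belong to a list of 20 immediate early and MAP kinase feedback genes on which no other gene passed. NFKB1, the p105 subunit of NF-kappaB, rose from 73.1 and 62.2 CPM to 172 and 178 CPM (log2 1.37 ± 0.16, adjusted p 9.21e-04) and was, with TRAF1, one of the called members of 14 NF-kappaB genes. Among 9 estrogen-responsive genes MYB, a transcription factor, rose (log2 1.26 ± 0.28, adjusted p 0.0234).

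Calcium and phosphate genes were looked at because the coating is a calcium phosphate. Both media were on that coating, so a part of the surface in these changes was not tested. Of 14 tested 3 rose and 2 fell, against 3.28% and 2.09% of all genes, with a median log2 change of -0.02. SLC20A2, a phosphate importer, was at 23.8 and 34 CPM in control and 59.7 and 62.6 CPM in stripped medium (log2 1.08 ± 0.19, adjusted p 0.00845). ATP2B1, a calcium pump of the plasma membrane, was at 68.2 and 70.6 CPM against 128 and 191 CPM (log2 1.20 ± 0.22, adjusted p 0.0100). S100P, a calcium-binding protein, was at 13.2 and 74.3 CPM against 324 and 160 CPM (log2 2.47 ± 0.59, adjusted p 0.0341), with replicates far apart in both media. STC2, a stanniocalcin that is also on the ATF4 list, fell (log2 -1.30 ± 0.29, adjusted p 0.0261), as did TRPM8. PLA2G2A, a secreted phospholipase, rose with REG4 among 8 tested genes of mucosal defence, from 17 and 53.8 CPM to 181 and 177 CPM (log2 2.34 ± 0.50, adjusted p 0.0210). None was called by edgeR among 26 interferon-stimulated, 16 G1 regulator, 10 polyamine, 9 vitamin D, retinoid and thyroid, and 8 neuroendocrine genes. At an unadjusted p below 0.05 the interferon list had 2 higher and 3 lower and the neuroendocrine list 1 higher and 1 lower, and DESeq2 called 3 interferon genes lower and 1 neuroendocrine gene higher. The G1 list had 2 higher and 2 lower and the polyamine list 1 higher at that p, with 1 lower and 0 by DESeq2, and the vitamin D list had 2 lower by both counts. Over all tested genes 3198 of 14656 had such a p in either direction, and DESeq2 called 726 higher and 581 lower.

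The same stripping on ACP was compared with VCaP by a test of the difference, in a fit of all 34 libraries. In VCaP 128 of 15614 genes were called (0.82%). The effects of the lines differed for 103 of 17323 genes (0.595%), 66 higher in LNCaP (0.381%) and 37 lower (0.214%). Without LNCaP control replicate 1 the balance turned, with 30 higher and 47 lower. ABCG2 is a drug efflux pump. It rose in LNCaP from 1.90 and 1.46 CPM to 14.9 and 23.1 CPM, and in VCaP was at 3.76 and 1.47 CPM in control and 0.878 and 0.574 CPM in stripped medium, on the scale of that fit. The difference of the log2 changes was 5.36 ± 0.72 (adjusted p 5.16e-04). NFKBIZ differed by 3.45 ± 0.40 (adjusted p 1.10e-04) and SYNE1 by 4.02 ± 0.51 (adjusted p 3.31e-04). In the 4 VCaP libraries NFKBIZ ran from 6.53 to 10.8 CPM and SYNE1 from 13.7 to 20.9 CPM.

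HPGD moved apart in the lines. It fell in LNCaP and stood at 266 and 206 CPM in VCaP control and 556 and 412 CPM in VCaP stripped medium, where its own change was not called (adjusted p 0.200). The difference was log2 -4.67 ± 0.74 (adjusted p 0.00201). TM4SF1 was at 55.5 and 54.9 CPM in VCaP control and 63.3 and 76.8 CPM in stripped medium, a difference between lines of -3.34 ± 0.46 (adjusted p 5.88e-04). TSC22D3 differed by -2.79 ± 0.43 (adjusted p 0.00190). It was low in VCaP, at 2.68 and 2.72 CPM in control and 6.14 and 4.47 CPM in stripped medium. CHRNA2 differed by -3.28, ELOVL7 by -2.54 and IQGAP2 by -2.29, and SLC20A2 by 1.59, all past the threshold. CHRNA2, ELOVL7 and IQGAP2 were at 27.6 CPM or more in each of the 4 VCaP libraries. Of the androgen-induced list, 3 of 40 genes differed between lines: HPGD, TSC22D3 and CENPN, the last of which was named after its value was seen. KLK3, KLK2, TMPRSS2, FKBP5 and FOLH1 did not, with adjusted p from 0.611 for FKBP5 to 0.966 for FOLH1. For TMPRSS2 the difference was log2 -0.54 ± 0.61, so an equal change and one about 2 times as large are both within 2 SE. On simulated data this test recovered 54.5% of changes of log2 2 (16385 genes) and 1% of log2 1 (16421 genes), so small differences between lines were not detectable.

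**Figure D5:**
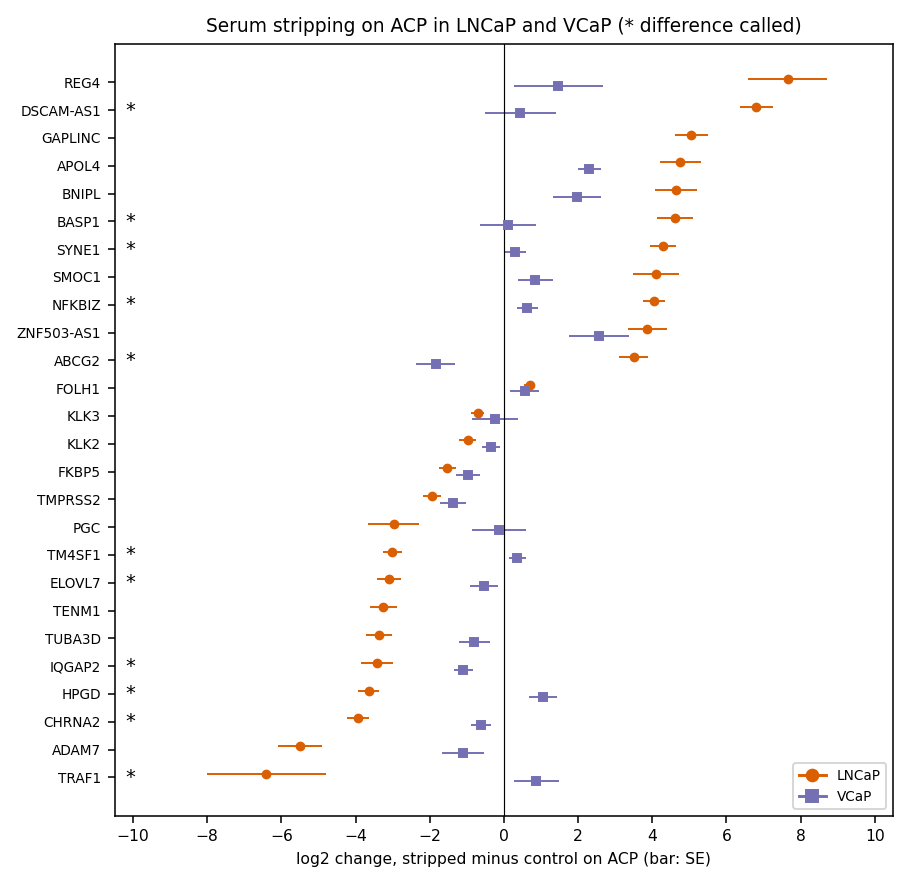
Log2 change of stripped against control medium on ACP (x axis) with SE bars for named genes in LNCaP (orange circles) and VCaP (purple squares); an asterisk marks a called difference between lines. GAPLINC and TENM1 have no VCaP point because they were too low to test there, and HPGD, TM4SF1 and ABCG2 lie on opposite sides of 0 in the lines.

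How firmly the single genes stood was checked by leaving out each of the 4 libraries in turn. Of 56 named genes called, 31 were still called without each library, among them 18 of the 20 largest rises and falls. TRAF1 and PGC were the exceptions among those 20, and PGC was lost without control replicate 2 or either stripped replicate (log2 -3.32 to -2.54). The ATF4 genes MTHFD2 and SLC1A5 and the androgen-induced TMPRSS2, SLC45A3, HPGD and ADAM7 held throughout, TMPRSS2 with log2 -2.34 to -1.42. KLK2 did not pass when any 1 library was left out (log2 -1.06 to -0.89) and KLK3 without control replicate 2 or either stripped replicate (log2 -0.96 to -0.40), and FKBP5 without stripped replicate 1 (log2 -1.77 to -1.33). FOLH1 (log2 0.57 to 0.82), DUSP1 (log2 1.09 to 1.49) and PLA2G2A (log2 1.73 to 3.39) were lost without control replicate 1 or either stripped replicate, and so was TM7SF2 (log2 0.55 to 1.28). ERO1A (log2 -1.46 to -0.72), DUSP4 (log2 -1.49 to -0.65), STC2 (log2 -1.50 to -1.08), ANKRD37 (log2 -2.59 to -0.92) and MYB (log2 0.91 to 1.71) were lost without control replicate 2 or either stripped replicate. FADS1 (log2 -0.78 to -0.67), PDK1 (log2 -1.79 to -1.27), S100P (log2 1.70 to 4.19), SLC20A2 (log2 0.84 to 1.35), ST6GALNAC1 (log2 -1.36 to -1.15) and TRPM8 (log2 -1.90 to -1.41) were lost without either stripped replicate. ATP2B1 was lost without control replicate 1 (log2 1.17) or stripped replicate 2 (log2 0.88). SERPINI1 (log2 1.83) and UAP1 (log2 -1.43) were lost without stripped replicate 2, and TSC22D3 (log2 -1.61) without stripped replicate 1. Other sets of libraries in the fit mattered too. Of the 56 calls, 14 were lost in a fit of the LNCaP ACP libraries only and 10 in a fit of all lines. Among the latter were ACPP (edgeR adjusted p 0.0914), UGT2B17 (0.196) and TRIB3 (0.0510). A fit of the compared libraries only lost 4, which were KLK3, ANKRD37, S100P and TM7SF2. On simulated data with this design, the test recovered 83% of changes of log2 2 (14305 genes) and 52.5% of log2 1 (14307 genes).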

How the data were processed

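The deposited table holds raw read counts per gene for 34 libraries, and the submitters' processing notes name STAR, HTSeq and hg19 with no version, annotation or strand setting. From it, edgeR 4.0.16 (R 4.3.3) fitted the 10 LNCaP libraries in 5 groups with TMM scaling, a filter at 10 counts (filterByExpr) and Benjamini-Hochberg adjustment over all genes tested, threshold 0.05. The SE of a log2 change is its size over the root of F. The difference between LNCaP and VCaP was a contrast in a fit of all 34 libraries. Alternatives were DESeq2 1.42.0 and its size factors, no filter, a replicate block, other sets of libraries and leaving out each library.

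Named genes were the 10 largest rises and falls at 5 CPM or more, up to 3 called members per list and direction, KLK3, KLK2, TMPRSS2, FKBP5 and FOLH1, and the 3 largest differences between lines in each direction. Other named genes and the transfer RNA, cholesterol export and lysosome lists were chosen after their values were seen. The members and all lists were chosen with earlier results of these data known. Some genes are counted in the lists and not reported here by name. The tests were checked on simulated data.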

Additional observations from a re-analysis of the deposited data

Results flagged for a closer look

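The effect of serum stripping on ACP differed between LNCaP and VCaP, by the interaction test over 34 libraries (edgeR, Benjamini-Hochberg), for 13 of the named genes. These values are differences of log2 changes, LNCaP minus VCaP. Upward they were 6.41 for DSCAM-AS1 (adjusted p 0.0496), 5.36 for ABCG2 (5.16e-04), 4.54 for BASP1 (0.00933), 4.02 for SYNE1 (3.31e-04), 3.45 for NFKBIZ (1.10e-04) and 1.59 for SLC20A2 (0.0293). Downward they were -7.25 for TRAF1 (adjusted p 0.0236), -4.67 for HPGD (0.00201), -3.34 for TM4SF1 (5.88e-04), -3.28 for CHRNA2 (0.00204), -2.79 for TSC22D3 (0.00190), -2.54 for ELOVL7 (0.0155) and -2.29 for IQGAP2 (0.0252). In a fit of the LNCaP and VCaP libraries on ACP only, 6 of the 13 lost the call. These were TSC22D3 (adjusted p 0.0532), DSCAM-AS1, BASP1, SLC20A2, TRAF1 and IQGAP2.

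ABCG2, CHRNA2, HPGD, NFKBIZ, SYNE1, TM4SF1 and TSC22D3 passed without each of the 8 LNCaP and VCaP libraries in turn. The other 6 were lost without at least 1. DSCAM-AS1, at most 0.439 CPM in VCaP, was lost without each library other than LNCaP control replicate 2 (5.72 to 7.51), and BASP1 without VCaP control replicate 1. TRAF1 ranged from -11.24 to -3.18, the latter without LNCaP control replicate 2. ELOVL7 (-2.98 to -2.20), IQGAP2 (-2.60 to -1.93) and SLC20A2 (1.21 to 2.10) were lost without 4, 6 and 5 of the 8 libraries.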

How the results depend on the processing

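No single value changed sign under any alternative run, but without LNCaP control replicate 1 the balance of calls turned, to 225 higher and 309 lower on stripping. The 787 genes called were 1732 with no count filter, 1307 with DESeq2, 416 in a fit of the 6 LNCaP libraries on ACP and 476 with a log2 change of at least 1. Leaving out 1 library gave 191 to 771. The androgen-induced genes called lower ranged from 8 to 17 so, the androgen-repressed genes called higher from 2 to 5 (3 in a fit of all lines), the ATF4 genes called lower from 8 to 21 (7 in a fit of all lines) and the fatty acid genes called lower from 2 to 5 (3 in the LNCaP ACP fit and 3 with a log2 change of at least 1). The 103 genes that differed between lines were 287 with no filter, 435 with DESeq2, 20 in a fit of the 12 LNCaP and VCaP libraries on ACP and 25 to 119 without 1 library. Deviations of same-numbered libraries correlated at -0.229 to 0.452 over 6 pairs of LNCaP groups (0.0609 for control with stripped), and the numbers were not taken to pair them. With the replicate number as a block 866 genes were called and 160 differed between lines, and of 56 calls named by the rule TM7SF2 was lost; FASN, named outside it, was lost too, which left 6 fatty acid genes. With 2 libraries a group, the call count rests most on the stripped pair.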

Other observations

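Several abundant genes outside the lists, chosen after their values were seen, changed with stripped serum. SELENBP1, a selenium-binding protein, went from 454 and 423 CPM to 1901 and 1653 CPM (log2 2.02 for stripped against control). SEMA3C, a secreted guidance protein, rose from 48.5 and 70.3 CPM to 305 and 346 CPM (log2 2.45). KCNMA1, a large-conductance potassium channel, fell from 131 and 108 CPM to 26.3 and 24.1 CPM (log2 -2.25). These 3 genes stayed past the threshold without each library in turn.

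Of 8 tested genes of cholesterol export and other targets of the oxysterol receptor LXR, 3 rose and none fell, with a median log2 change of 0.25. Over all tested genes 3.28% were called higher and 2.09% lower. ABCA1, a cholesterol exporter, was at 1.42 and 1.30 CPM in control, 6.79 and 7.33 CPM in stripped medium and 1.23 and 2.31 CPM with androgen (log2 2.37 ± 0.32, adjusted p 0.00185). LPCAT3, which remodels phospholipids, went from 138 and 134 CPM to 268 and 251 CPM (log2 0.93). ABCG1, a related exporter, rose from 15.0 and 17.9 CPM to 38.4 and 29.3 CPM (log2 1.04), a call lost without control replicate 1 (log2 0.92) or stripped replicate 1 (log2 0.82).

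Of 30 lysosomal genes 5 rose and 1 fell, against 3.28% and 2.09% of all tested genes, with a median of 0.24. The 5 that rose were ASAH1, SCARB2, CD63, MANBA and NPC2, and of these only ASAH1 kept its call without each library in turn. The count that rose was 2 without control replicate 1 or either stripped replicate and 8 without control replicate 2. ASAH1, the acid ceramidase, was at 289 and 277 CPM in control, 975 and 912 CPM in stripped medium and 3359 and 2101 CPM with androgen (log2 1.74 ± 0.19, adjusted p 6.99e-04). NPC1, which moves cholesterol out of lysosomes, fell from 94.3 and 145 CPM to 47.3 and 63.6 CPM (log2 -1.11), a call lost without stripped replicate 1 (log2 -0.92). Both lists were put together after the values were seen, so their counts are a description.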
